A study of Mus musculus with 6 samples.

Results

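The genes described here are 47 mouse genes for the breakdown of amino acids other than the branched-chain ones, compared between 3 WT and 3 SCADD livers. They were chosen by symbol from the known steps of these pathways by a rule that uses no measured value, although earlier results of these data were known, and sorted into 8 sets by amino acid. All 47 symbols matched 1 Ensembl gene among the 55487 in the tables, and 46 passed the filter on low counts, as did 13498 genes in all. The 6 animals were male mice aged 8 weeks on standard chow. WT animals belonged to the inbred substrain BALB_cJ and SCADD animals to BALB_cBYJ, the substrain with a deficiency of short-chain acyl-CoA dehydrogenase. That enzyme starts the mitochondrial oxidation of short-chain fatty acids. Poly(A) RNA from 20 mg of frozen liver was sequenced for each animal, and the series asks how the liver transcriptome responds to this deficiency. Since each genotype is its own substrain, the enzyme defect and other differences between the substrains cannot be told apart.

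The liver is the main site where surplus amino acids are taken apart. Each amino acid loses its nitrogen to ammonia, glutamate or alanine, and its carbon skeleton is carried by a short chain of dedicated enzymes into pyruvate, ketone bodies or the citric acid cycle. Several of these enzymes also feed other routes: serine, glycine, histidine and methionine breakdown supply or consume one-carbon units, and tryptophan breakdown supplies precursors of NAD. Hormones such as glucagon and glucocorticoids are known to raise many of these genes in fasting, and a number of them are known to be expressed mainly around the portal vein.

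Between 23991104 and 27148756 reads were counted in genes in the WT libraries, and between 16948986 and 23912744 in the SCADD libraries. The unmapped share was 13.6% to 16.4% in WT and 25.1% to 36.6% in SCADD, and genes and pseudogenes of the major urinary proteins took 3.23% to 4.16% of TPM in WT and 7.37% to 14.8% in SCADD. The part of either in the results below was not tested, apart from the scaling without Mup genes, which left the same 10 members past the test. The transcript of the deficient enzyme, Acads, stood at 185, 166 and 196 CPM (counts scaled to a common library size by TMM) in WT and 99.3, 104 and 96.96 CPM in SCADD, lower in every SCADD library than in any WT library (log2 fold change -0.86, SE 0.13, adjusted p = 0.00407). The 7 hepatocyte markers looked at to check the liver label summed to 65171 to 90536 TPM in WT and 42213 to 82781 TPM in SCADD. Of these markers Ahsg fell (log2 fold change -0.98, SE 0.20, adjusted p = 0.0142) and the other 6 did not pass the test. Summed marker levels were 131 to 188 TPM in WT and 110.1 to 138 TPM in SCADD for 7 Kupffer cell genes, 145 to 186 and 85.9 to 114 TPM for 7 endothelial genes, 37.6 to 46.3 and 28.2 to 30.6 TPM for 7 bile duct genes, 175 to 277 and 156 to 229 TPM for 7 stellate cell genes, and under 20 TPM in either group for lymphocyte and neutrophil genes. Erythroid genes summed to 1913 to 2768 TPM in WT and 1320 to 3896 TPM in SCADD, and genes of pancreas or kidney to 70.1 to 101 and 38.2 to 53.0 TPM, with Prss2 and Cpa1 at 0 in all libraries. Past the test were the endothelial gene Lyve1 (-1.40, SE 0.29, adjusted p = 0.0152), the erythroid gene Alas2 (1.13, SE 0.17, adjusted p = 0.00357) and Cela1, an elastase of the pancreas (-0.75, adjusted p = 0.0273), the only ones of these cell types. In bulk tissue fewer cells of a type and less RNA per cell cannot be told apart.

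The members spanned more than 3 orders of magnitude in level. Measured as TPM, which is per transcript length and so compares genes, 5 members had a mean over 1000 TPM across the 6 libraries, 15 lay between 100 and 1000, 23 between 10 and 100, and 4 under 10. Bhmt, betaine-homocysteine methyltransferase, was the highest in WT with 4388, 4538 and 4849 TPM, and had 2552, 1037 and 1001 TPM in SCADD. Tdo2, tryptophan 2,3-dioxygenase, followed with 2492, 2816 and 2974 TPM in WT and 2627, 2475 and 3791 TPM in SCADD. Cdo1, cysteine dioxygenase, had 2349, 2833 and 2394 TPM in WT and 2026, 1854 and 1764 TPM in SCADD. The WT ranges of Bhmt and Tdo2 lay apart, while those of Tdo2 and Cdo1 overlapped, and in all 3 SCADD libraries Tdo2 stood above Bhmt. At the low end Ido2 had a WT mean of 4.23 ± 1.24 TPM and Acmsd of 2.01 ± 0.204 TPM (SD, n = 3 each). Dao, D-amino acid oxidase, had 3 counts over the WT libraries and 1 over the SCADD libraries and was not tested. Together the 47 members held 1.88%, 2.01% and 1.96% of all TPM in WT and 1.54%, 1.39% and 1.19% in SCADD, without overlap. Bhmt made up a large share of the gap: without it the remaining 46 held 1.44%, 1.56% and 1.48% in WT and 1.28%, 1.28% and 1.09% in SCADD. TPM values add up to the same total in every library, so a share also falls where other genes take more.

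**Figure D1:**
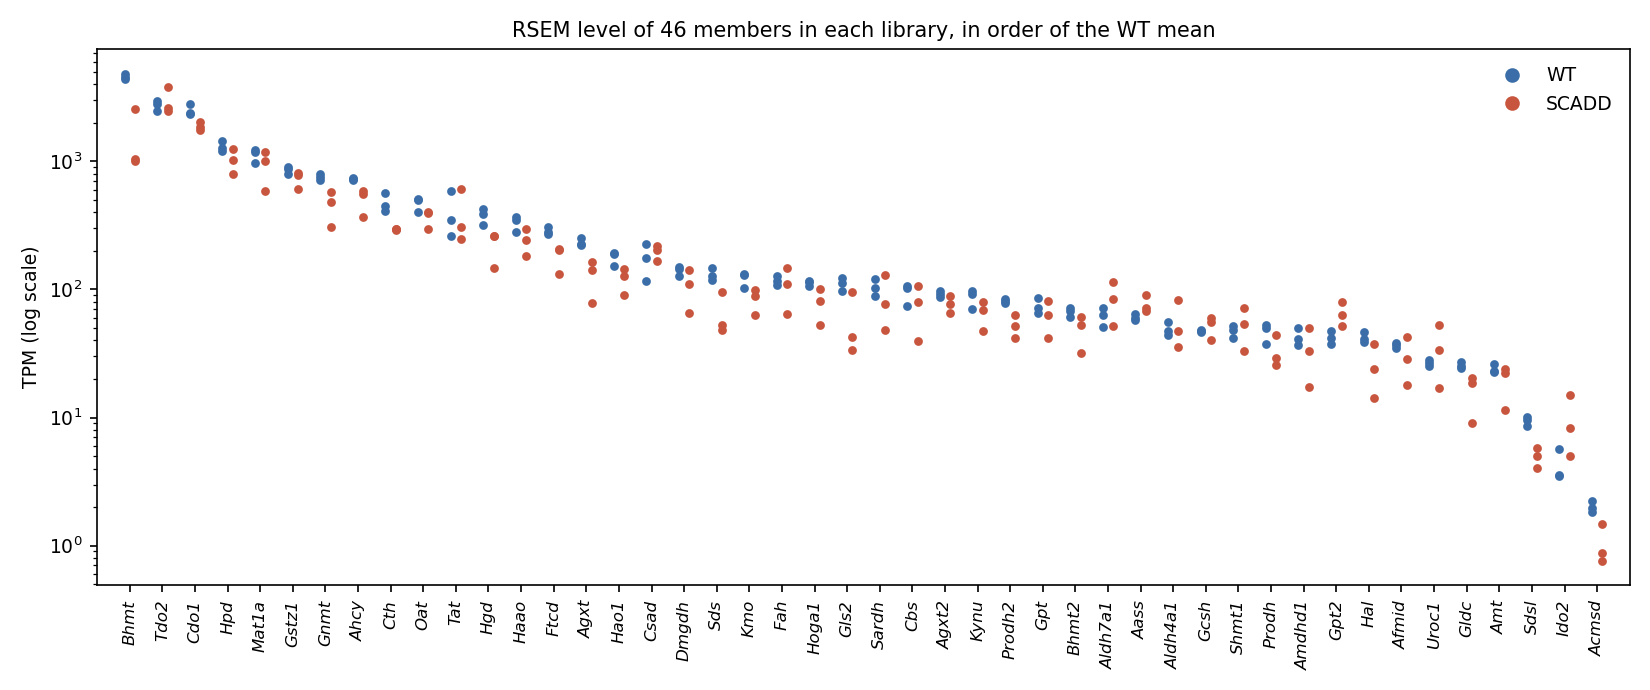
Level of 46 members (Dao left out) in each library, in TPM on a log axis, ordered by the WT mean; blue points are the 3 WT and red points the 3 SCADD libraries. Bhmt, at 4388 to 4849 TPM in WT, lies at 1001 to 2552 TPM in SCADD, and Ido2 lies above all 3 WT libraries in 2 of the 3 SCADD libraries.

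Of the 46 members tested, 9 fell and 1 rose in SCADD livers (edgeR quasi-likelihood test, adjusted p under 0.05 over all tested genes). The 9 that fell were Bhmt, Sds, Acmsd, Sdsl, Agxt, Hgd, Gnmt, Gldc and Prodh2, and the one that rose was Ido2. The falls make up 19.6% of the members, against 2.80% of all tested genes called lower, and the rise 2.17%, against 4.22% called higher and 7.02% called in either direction. The log2 fold change was negative for 36 of the 46 members, with a median of -0.37, while the median over all tested genes was -0.00078 and 50.1% of them were negative. The 7 hepatocyte markers had a median of -0.32. Of these, 5 were negative, and for 3 all SCADD values lay below all WT values. A negative shift is therefore not particular to the members, and they were not compared with genes of like expression. The 3 SCADD values lay below all 3 WT values for 20 members, or 43.5% (13.1% of all tested genes), and above them for 4, or 8.70% (14.9%), where the groups lay apart in either direction for 28.0% of all tested genes. An unadjusted p under 0.05 was found for 25 of the 46 members (54.3%) and for 22.7% of all tested genes. The size of the called falls ran from 0.345-fold for Bhmt to 0.679-fold for Prodh2, and only Bhmt fell below 0.5-fold. Against a change of 1.5-fold 0 members passed with edgeR and 7 had an unadjusted p under 0.05, with Bhmt the nearest at an adjusted p of 0.0996.

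These counts depended on single libraries. Without WT replicate 2, 0 members were called with edgeR, although 19 had an unadjusted p under 0.05, 35 of 46 still had a negative log2 fold change and the median over the 46 was -0.34. In that setting the calls over all genes dropped as well, to 155 lower and 240 higher from 378 and 569. Without WT replicate 3, or without SCADD replicate 1, 2 members fell (4.35%), where 1.29% and 1.40% of all tested genes were called lower. Without SCADD replicate 2, 14 members fell (30.4%), while 374 of all tested genes were called lower, against 378 with all libraries. DESeq2 called 17 members lower (37.0%, against 4.04% of all tested genes) and 2 higher, with 745 genes higher in all. The same member numbers came from edgeR without a filter on low counts (36.2% lower, against 3.05% of all genes then tested). Under all 17 alternatives the sign of the log2 fold change was unchanged for 42 of the 46 members, including all 10 called ones. The exceptions were Tat, Tdo2, Fah and Aldh4a1, none of which was called under any setting. For the 10 called members the groups did not overlap, so leaving out 1 library could hardly change their sign. The other settings used the same animals, so an unchanged sign there is not independent evidence of direction.

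**Figure D2:**
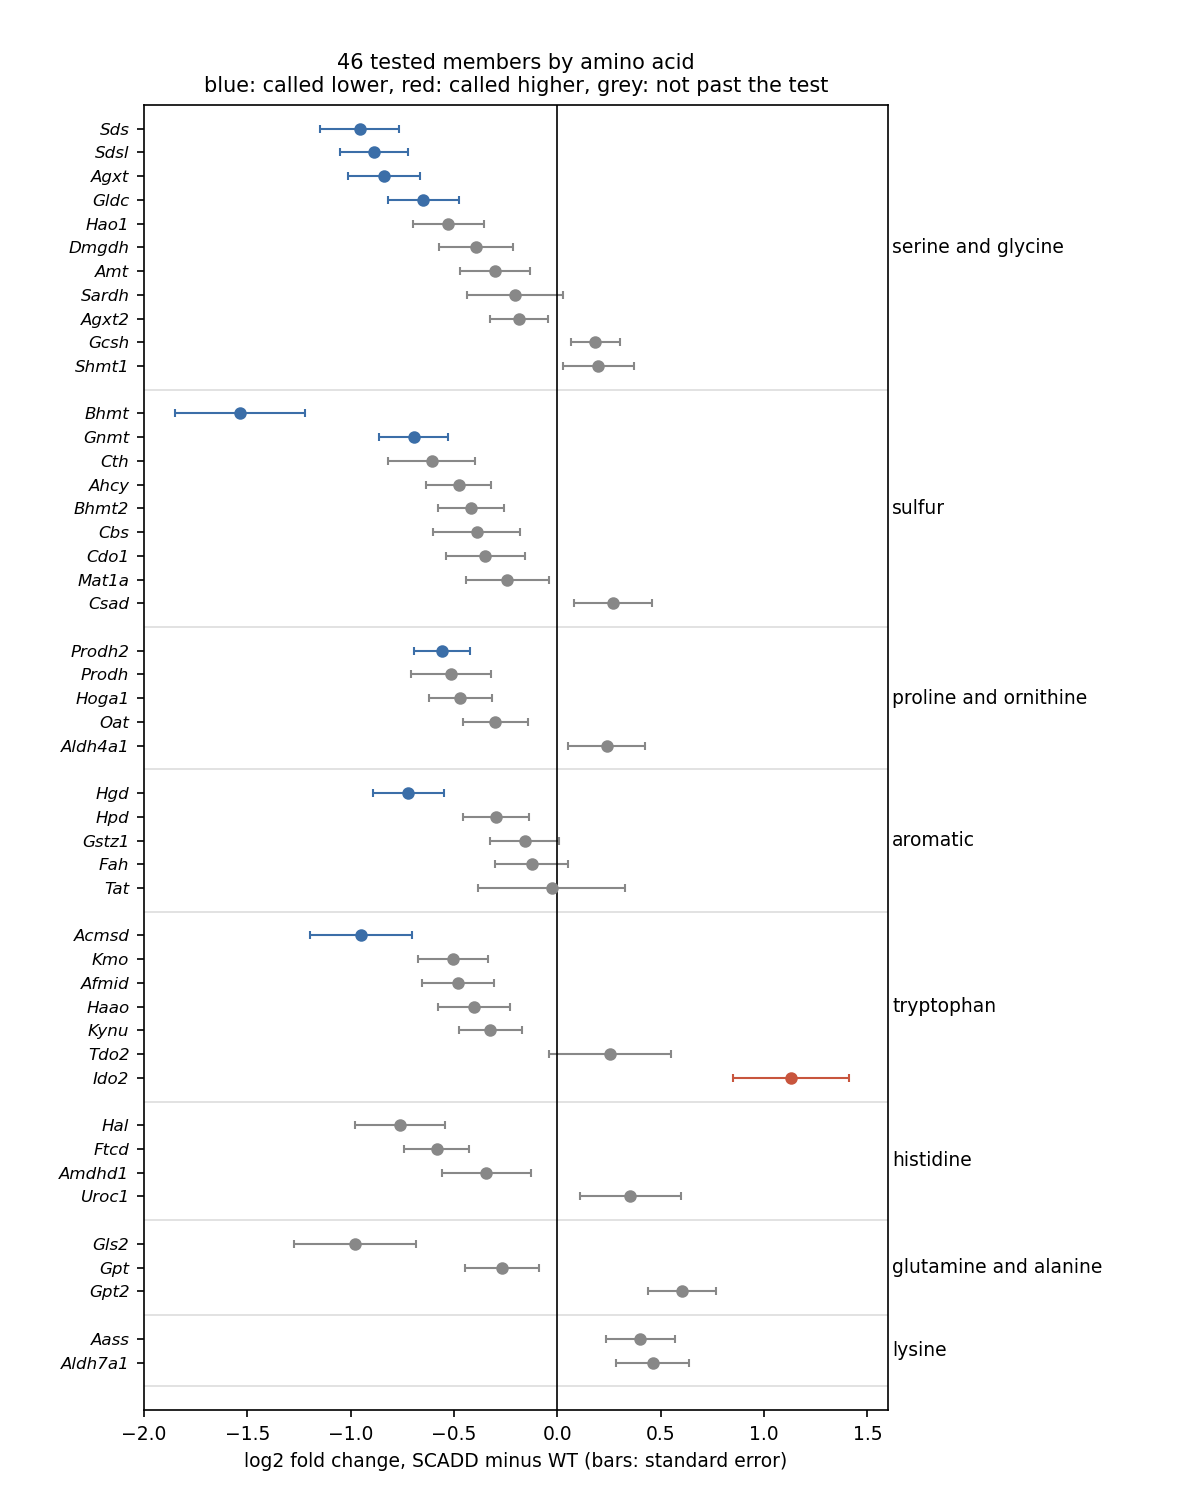
Log2 fold change (SCADD minus WT) of the 46 tested members with its standard error, by amino acid. Blue points are the 9 members called lower, the red point is Ido2, and grey points did not pass the test; 36 of 46 points lie left of 0.

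**Figure D3:**
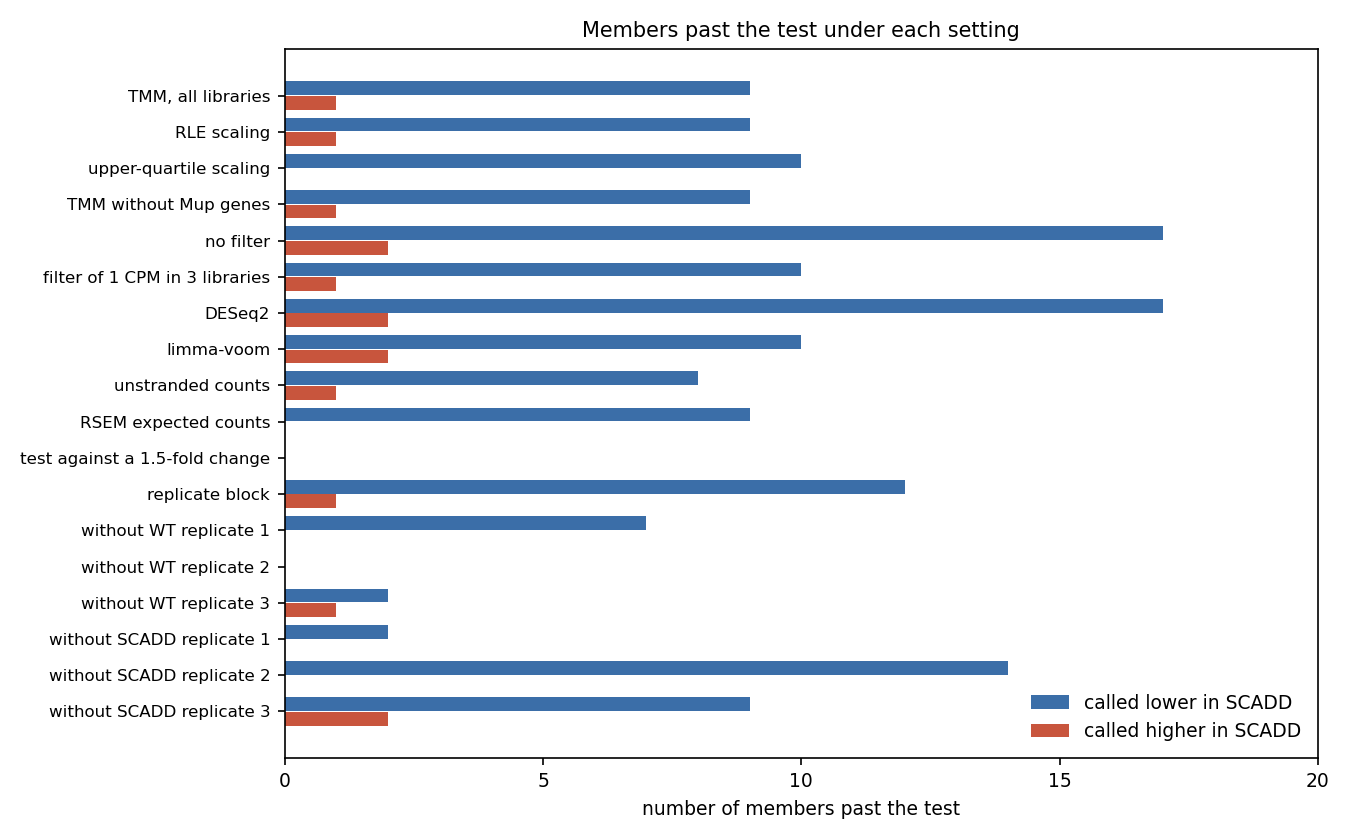
Number of members called lower (blue) and higher (red) in SCADD under each setting, with the setting of the text at the top. The number called lower runs from 0 without WT replicate 2 and against a 1.5-fold change to 17 with DESeq2 and without a filter.

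Serine, glycine and glyoxylate breakdown held 4 of the 9 genes that fell, from 12 members of which 11 were tested, and the median log2 fold change of the 11 was -0.39. Sds (ENSMUSG00000029597, chromosome 5, 120476526 to 120483932, GRCm38) encodes serine dehydratase, which turns serine into pyruvate and ammonia. It had 143, 177 and 149 CPM in WT and 61.0, 103 and 77.9 CPM in SCADD. The groups did not overlap, and the fall was to 0.515-fold (log2 fold change -0.96, SE 0.19, adjusted p = 0.0137). Its paralogue Sdsl (ENSMUSG00000029596, chromosome 5, 120458186 to 120472810) lies 3.71 kb away on the other strand. Sdsl had 11.9, 14.7 and 13.6 CPM in WT and 7.79, 5.99 and 8.00 CPM in SCADD, a fall to 0.541-fold (-0.89, SE 0.16, adjusted p = 0.0103) with no overlap. Both lie about 5.34 to 5.36 Mb from Acads on the same chromosome. The other members there are Hpd, not called, at 8.05 Mb from Acads and Dao, not tested, at 1.08 Mb.

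Glycine itself is split in mitochondria by the glycine cleavage system. Gldc (ENSMUSG00000024827, chromosome 19, 30098447 to 30175429), the decarboxylase that starts this reaction, had 101, 99.7 and 99.1 CPM in WT and 71.8, 72.9 and 46.7 CPM in SCADD, a fall to 0.638-fold (-0.65, SE 0.17, adjusted p = 0.0481). The WT libraries lay within 3 CPM of each other, and SCADD replicate 3 was the lowest. The other subunits measured did not pass: the aminomethyltransferase Amt stood at -0.30 on the log2 scale (SE 0.17, adjusted p = 0.330) and the lipoyl carrier Gcsh of 0.18 (SE 0.12, adjusted p = 0.411). Agxt (ENSMUSG00000026272, chromosome 1, 93135240 to 93145421), the alanine-glyoxylate aminotransferase that turns glyoxylate into glycine, had 349, 328 and 349 CPM in WT and 204, 222 and 147 CPM in SCADD. That is a fall to 0.559-fold (-0.84, SE 0.17, adjusted p = 0.0162), again with SCADD replicate 3 lowest and no overlap. Hao1, the peroxisomal glycolate oxidase that makes glyoxylate, stood at -0.53 on the log2 scale (SE 0.17, adjusted p = 0.0926). The mitochondrial folate-linked dehydrogenases Dmgdh (-0.39, adjusted p = 0.221) and Sardh (-0.20, adjusted p = 0.664), the aminotransferase Agxt2 (-0.19, adjusted p = 0.488) and the cytosolic hydroxymethyltransferase Shmt1 (0.20, adjusted p = 0.544) did not pass either. Calls were lost without WT replicate 2 for all 4 genes (adjusted p 0.0563 to 0.152), without SCADD replicate 1 for Sds, Agxt and Gldc (0.0501 to 0.0807), without WT replicate 3 for Agxt and Gldc (0.0667 and 0.126) and without WT replicate 1 for Gldc (0.106).

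**Figure D4:**
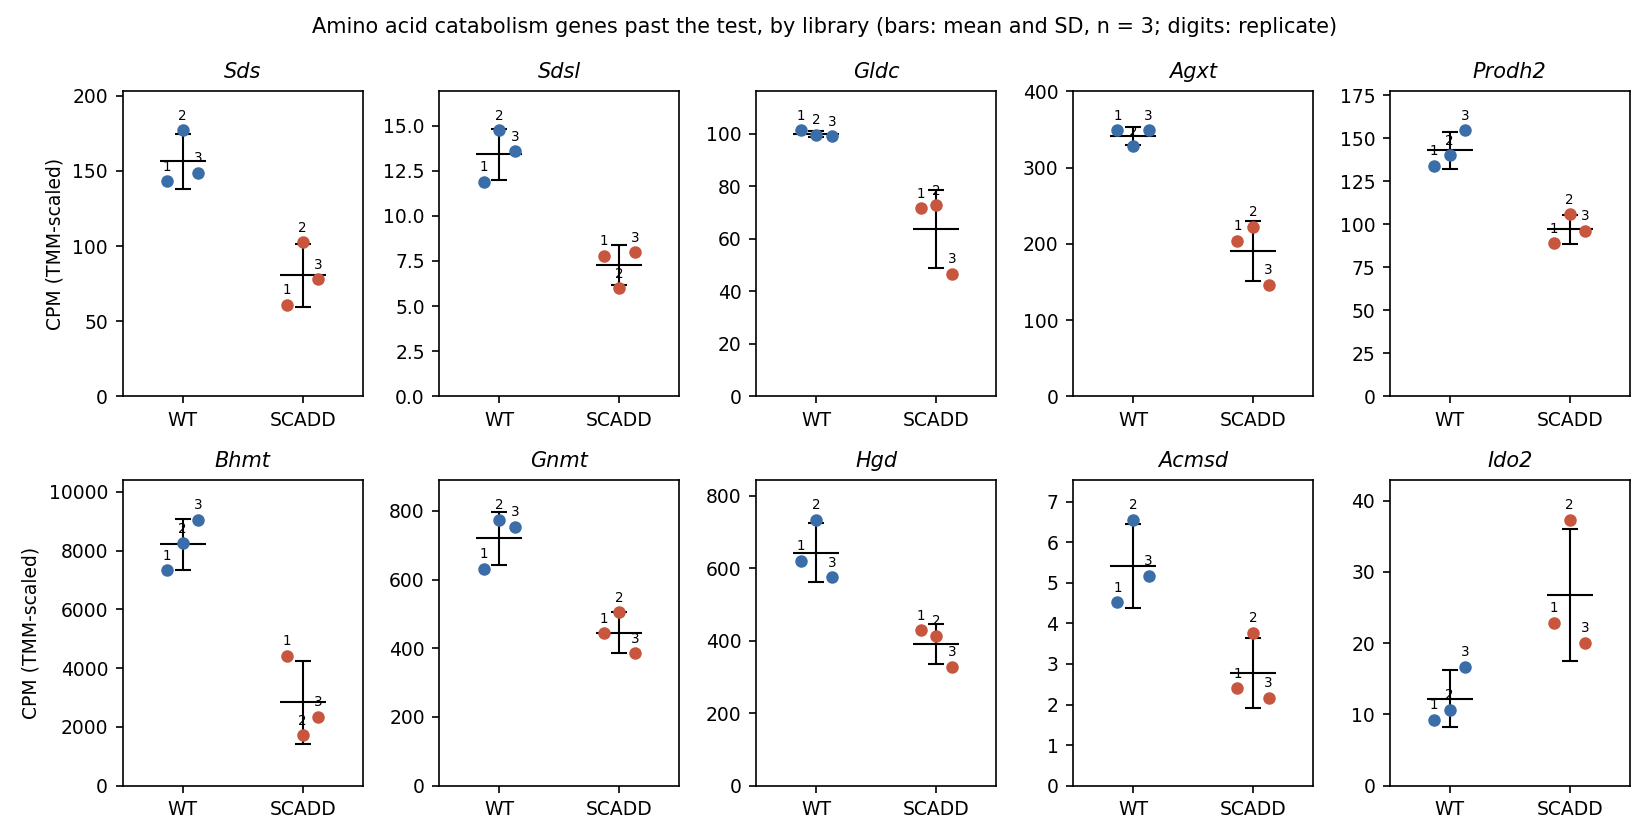
CPM of the 10 members past the test in each library; points are animals with their replicate number, and bars give the mean and SD of 3 animals. In every panel the WT and SCADD points do not overlap, and Ido2 is the only gene with the higher SCADD values.

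Methionine and the other sulfur amino acids gave the largest fall of the 46 members, and 2 of 9 members fell, with a median log2 fold change of -0.42. Bhmt (ENSMUSG00000074768, chromosome 13, 93616675 to 93637961), which uses betaine to turn homocysteine back into methionine, had 7341, 8246 and 9057 CPM in WT and 4429, 1725 and 2350.3 CPM in SCADD. All SCADD values lay below WT, with SCADD replicate 1 well above the other two, and the fall was to 0.345-fold (log2 fold change -1.53, SE 0.31, adjusted p = 0.0157). Gnmt (ENSMUSG00000002769, chromosome 17, 46725664 to 46729168), which disposes of surplus methyl groups by methylating glycine, had 632, 775 and 754 CPM in WT and 445, 505 and 385 CPM in SCADD, a fall to 0.618-fold (-0.69, SE 0.17, adjusted p = 0.0334). The other 7 sulfur members did not pass. In the methionine cycle, Ahcy, which hydrolyses S-adenosylhomocysteine, stood at -0.48 on the log2 scale (SE 0.16, adjusted p = 0.0978) and Mat1a, which makes S-adenosylmethionine, of -0.24 (SE 0.20, adjusted p = 0.524). In the route from homocysteine to cysteine the values were -0.39 for Cbs (adjusted p = 0.307) and -0.61 for Cth (adjusted p = 0.113). On the way to taurine, Cdo1 stood at 3196, 4111 and 3614 CPM in WT and 2821, 2442 and 3310.04 CPM in SCADD, with overlap (-0.35, SE 0.19, adjusted p = 0.318), and Csad was the one sulfur member with a positive value (0.27, adjusted p = 0.442). The 9 sulfur genes took 1.05% ± 0.0359 of TPM in WT and 0.591% ± 0.146 in SCADD (SD, n = 3 each), and 0.595% ± 0.0362 and 0.438% ± 0.0718 without Bhmt. The calls of Bhmt and Gnmt were lost without WT replicate 2 or 3 (adjusted p 0.0586 to 0.153), that of Bhmt also without SCADD replicate 3 (0.0917) and that of Gnmt without SCADD replicate 1 (0.116).

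Of the 5 genes for proline, hydroxyproline and ornithine, Prodh2 fell, and the median log2 fold change was -0.47. Prodh2 (ENSMUSG00000036892, chromosome 7, 30493622 to 30513402) encodes hydroxyproline dehydrogenase, which opens the breakdown of the hydroxyproline released from collagen. It had 134, 140.03 and 154 CPM in WT and 88.9, 106 and 96.3 CPM in SCADD, a fall to 0.679-fold (log2 fold change -0.56, SE 0.14, adjusted p = 0.0343) without overlap. Hoga1, the aldolase that ends this route by releasing glyoxylate, stood at -0.47 on the log2 scale (SE 0.15, adjusted p = 0.0934), and its groups did not overlap. Prodh, the proline dehydrogenase, had -0.51 (SE 0.19, adjusted p = 0.142) and the ornithine aminotransferase Oat -0.30 (SE 0.16, adjusted p = 0.293). Aldh4a1, the dehydrogenase shared by both proline routes, had a positive value of 0.24 (SE 0.19, adjusted p = 0.496), which turned to -0.01 without SCADD replicate 2. The call of Prodh2 was lost without any one of the 3 WT replicates or SCADD replicate 1 (adjusted p 0.0569 to 0.153).

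In phenylalanine and tyrosine breakdown 1 of 5 members fell, and the median log2 fold change was -0.16. Hgd (ENSMUSG00000022821, chromosome 16, 37580153 to 37632020), homogentisate dioxygenase, which opens the aromatic ring, had 621, 735 and 576 CPM in WT and 429.8, 414 and 328 CPM in SCADD. The fall was to 0.607-fold (log2 fold change -0.72, SE 0.17, adjusted p = 0.0315) with no overlap, and the call did not hold when SCADD replicate 1 or any of the WT animals was left out (0.0668 to 0.155). The enzymes on either side of Hgd did not pass. Hpd, which makes homogentisate, stood at -0.30 on the log2 scale (SE 0.16, adjusted p = 0.313), and the isomerase Gstz1 and the last enzyme Fah had -0.16 (SE 0.16, adjusted p = 0.625) and -0.12 (SE 0.18, adjusted p = 0.733). Tat, the tyrosine aminotransferase that begins the pathway and a classic target of glucocorticoids and glucagon, had the largest coefficient of variation in WT of the 46 tested members, 43.1%, with 589, 1395 and 866 CPM in WT and 1370 (SCADD replicate 1), 646 and 780.04 CPM in SCADD, a change of -0.03 on the log2 scale (SE 0.36, adjusted p = 0.976).

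Tryptophan breakdown, with 7 members and a median log2 fold change of -0.40, held both a called fall and the called rise. Ido2 (ENSMUSG00000031549, chromosome 8, 24531892 to 24576333), an indoleamine dioxygenase able to start the kynurenine pathway, had 9.26, 10.7 and 16.7 CPM in WT and 22.8, 37.3 and 20.04 CPM in SCADD, a rise to 2.19-fold (log2 fold change 1.13, SE 0.28, adjusted p = 0.0468). SCADD replicate 2 was the highest and the gap between WT replicate 3 and SCADD replicate 3 was small. This call was lost with upper-quartile scaling (adjusted p = 0.0515), with RSEM counts (0.0834), with the replicate number as a block (0.0541) and without any 1 library but WT replicate 3 (0.0658 to 0.165). Tdo2, the main hepatic enzyme of the same step, had 4223, 5166 and 5665 CPM in WT and 4706, 4075 and 9169 CPM in SCADD, with SCADD replicate 3 far above the rest (0.25, SE 0.29, adjusted p = 0.667, and -0.19 without SCADD replicate 3). Acmsd (ENSMUSG00000026348, chromosome 1, 127729413 to 127767978) encodes the decarboxylase that diverts the pathway away from NAD synthesis. It had 4.52, 6.56 and 5.18 CPM in WT and 2.41, 3.77 and 2.17 CPM in SCADD, a fall to 0.518-fold (-0.95, SE 0.25, adjusted p = 0.0446) without overlap. Reads on the opposite strand made up 22.7% of stranded reads over Acmsd in WT and 34.1% in SCADD. Unscaled, they numbered 121 beside 413 sense reads in WT, and 90 beside 174 in SCADD. The larger share in SCADD thus came with fewer sense reads and not with more opposite-strand reads. With unstranded counts the adjusted p of Acmsd was 0.0884. Leaving out SCADD replicate 1, SCADD replicate 3, WT replicate 2 or WT replicate 3 ended the call too (0.0557 to 0.182). The enzymes between these ends had negative values that did not pass: -0.48 for Afmid (adjusted p = 0.129), -0.51 for Kmo (0.101), -0.32 for Kynu (0.243) and -0.40 for Haao (0.201). For Kmo and Afmid the groups did not overlap.

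No member for histidine, glutamine, alanine or lysine passed the edgeR test. Of these 9, 6 had an unadjusted p under 0.05 (22.7% of all tested genes). An absolute log2 fold change over 0.3 was found for 8, and the share of all tested genes over 0.3 was not computed. The median log2 fold change was -0.46 over the 4 histidine genes, -0.27 over the 3 for glutamine and alanine, and 0.43 over the 2 for lysine. Hal, histidine ammonia lyase, which takes the first nitrogen from histidine, had 179, 168 and 173 CPM in WT and 88.0, 144 and 74.4 CPM in SCADD. The groups did not overlap, with SCADD replicate 2 between the others and WT (log2 fold change -0.76, SE 0.22, adjusted p = 0.0647), and without SCADD replicate 2 Hal passed (-1.10, adjusted p = 0.00149). The values of the later steps were 0.35 for the urocanate hydratase Uroc1 (adjusted p = 0.445), -0.34 for Amdhd1 (0.392) and -0.58 for Ftcd (0.0517), which moves the remaining carbon to folate. Gls2, the liver-type glutaminase, had 169, 205 and 232 CPM in WT and 73.3, 159 and 75.1 CPM in SCADD, with SCADD replicate 2 again the highest of the 3 (-0.98, SE 0.29, adjusted p = 0.0832). Without SCADD replicate 2 it passed as well (-1.45, adjusted p = 0.000416). Gpt and Gpt2, the cytosolic and mitochondrial alanine aminotransferases, had opposite signs, -0.27 (SE 0.18, adjusted p = 0.417) and 0.60 (SE 0.16, adjusted p = 0.0513). Both lysine genes had positive values. Aldh7a1, the aminoadipate semialdehyde dehydrogenase, had 145, 118 and 143 CPM in WT and 179.8, 229 and 149.8 CPM in SCADD (0.46, SE 0.18, adjusted p = 0.149), and Aass, which starts lysine breakdown, had 0.40 (SE 0.17, adjusted p = 0.185). Aldh7a1 passed without SCADD replicate 3 (0.60, adjusted p = 0.026), and DESeq2 called Ftcd, Hal and Gls2 lower and Gpt2 higher.

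For 4 pairs of related genes among the members the ratio of counts was taken within each library, which does not depend on the scaling. The Bhmt to Bhmt2 ratio was 45.7, 55.6 and 53.2 in WT and 31.3, 14.6 and 24.0 in SCADD, so Bhmt was lower relative to its neighbour in each SCADD library. Bhmt2 alone stood at -0.42 on the log2 scale (SE 0.16, adjusted p = 0.147). The Gpt to Gpt2 ratio was 0.760, 0.742 and 0.734 in WT and 0.447, 0.476 and 0.305 in SCADD, again without overlap. In contrast the Sds to Sdsl ratio overlapped, at 11.7 ± 0.624 in WT and 11.6 ± 4.92 in SCADD, and so did Prodh to Prodh2, at 0.642 ± 0.125 and 0.664 ± 0.0378 (SD, n = 3 each). No test was made of these ratios, and 3 against 3 libraries cannot give an exact permutation p under 0.1. Members were spread over 19 chromosomes, and the closest neighbours were 4 pairs: Sdsl with Sds, Hal with Amdhd1 4.03 kb apart on chromosome 10, Bhmt with Bhmt2 17.8 kb apart, and Bhmt2 with Dmgdh 0.13 kb apart on chromosome 13. In each of these pairs both log2 fold changes were negative.

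**Figure D5:**
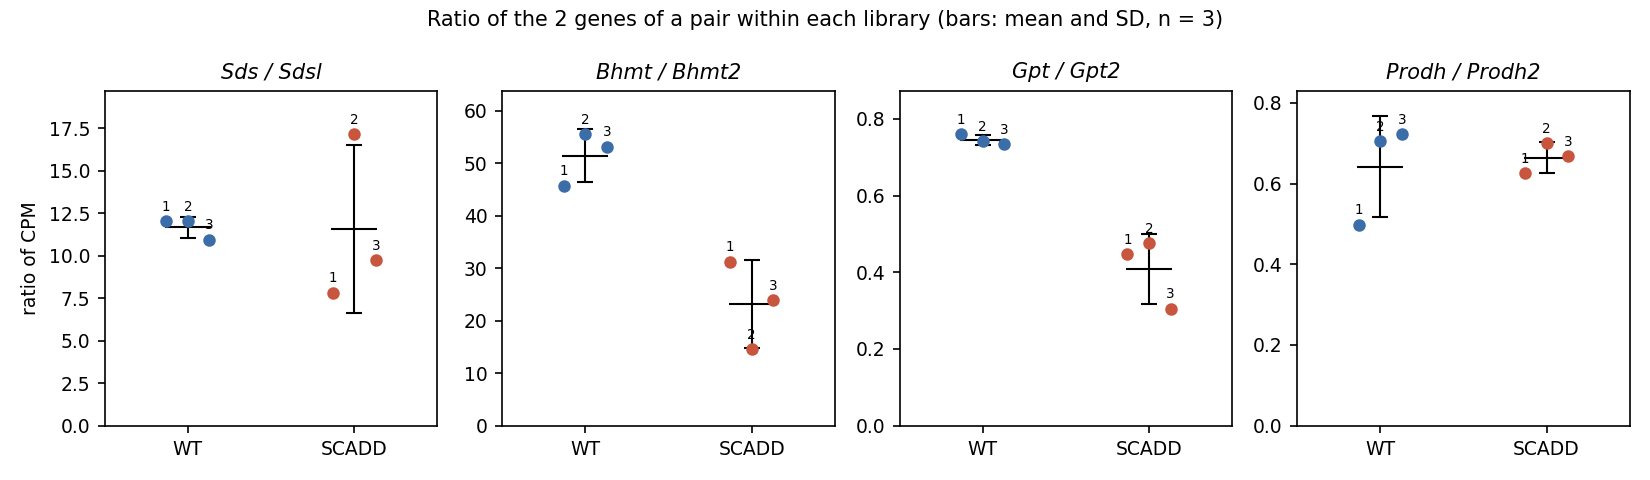
Ratio of CPM of the 2 genes of each of 4 pairs of related genes within each library; points are libraries with their replicate number and bars the mean and SD of 3. The WT and SCADD ratios lie apart for Bhmt over Bhmt2 and for Gpt over Gpt2 and overlap for the other pairs.

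Promoter sequence from RefSeq (GRCm38.p6) was at hand for 7 of the 10 called members and for 36 members in all, leaving out Dao. The 250 bases before the start are shown for 2 genes that fell: Hgd, which held a searched motif, and Agxt, which held none. They are Agxt at chr1:93134990-93135239 and Hgd at chr16:37579903-37580152, both on the plus strand. Capitals mark matches to the C/EBP pattern TTNCNNNAA in Hgd.
Agxt: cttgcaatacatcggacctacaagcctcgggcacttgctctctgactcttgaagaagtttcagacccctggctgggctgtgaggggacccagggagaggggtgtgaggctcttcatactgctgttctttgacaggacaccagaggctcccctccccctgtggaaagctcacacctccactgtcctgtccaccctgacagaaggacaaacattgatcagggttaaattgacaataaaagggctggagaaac
Hgd: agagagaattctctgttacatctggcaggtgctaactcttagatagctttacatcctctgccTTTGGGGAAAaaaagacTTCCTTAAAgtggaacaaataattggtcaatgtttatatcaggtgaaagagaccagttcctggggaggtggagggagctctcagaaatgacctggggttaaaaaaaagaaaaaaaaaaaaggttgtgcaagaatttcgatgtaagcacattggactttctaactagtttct
In Hgd the matches start 188, 187 and 171 bases before the start, the first 2 overlapping. Motifs were searched as exact letters on both strands. Members were counted by gene, with a match in any promoter of the gene, while the shares of all were counted by promoter. The 2 shares therefore differ in unit. The C/EBP pattern was present in 9 of the 36 member genes (25%) and in 32.9% of all 32851 promoters of that length. The half-site TGACG, which is contained in the full CRE TGACGTCA, was present in 6 (16.7%) and in 17.8% of all. The HNF4 motif CAAAGTCCA and the E-box CACGTG were in 1 member each (2.78%), against 0.384% and 6.02% of all promoters. The full CRE (1.55% of all), the direct repeat of AGGTCA with 1 base between the copies (0.0335%), the glucocorticoid element AGAACA followed 3 bases later by TGTTC (0.0304%) and the FOXA motif TGTTTAC (3.17%) were in 0 of the 36. A match in these windows is a description of letters, and no match says only that these letters are not in the window.

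Transcript length differed little between the groups. The mean transcript length of a gene in the RSEM tables, weighted by the abundance of its transcripts, was 0.96 to 1.05 times as long in SCADD as in WT for 46 members (Dao left out). The largest ratio was that of Sardh, with 2480.1, 2459 and 2477 bases in WT and 2528, 2621 and 2619.7 bases in SCADD. The groups did not overlap in length for 4 members, Sardh, Ftcd, Mat1a and Fah, none of them called in level. No test was made of length, and the share of all genes without such overlap was not computed, so the 4 are a description only. Reads on the opposite strand were under 3% in both groups for 46 of the 47 members, the exception being Acmsd.

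Other genes of these pathways moved in both directions. Of 40 further enzymes listed, 34 were tested, 3 fell and 2 rose, with a median log2 fold change of -0.05. Over all tested genes 2.80% were called lower and 4.22% higher. Got1, the cytosolic aspartate aminotransferase, had 145, 123 and 81.3 CPM in WT and 21.05, 20.004 and 13.9 CPM in SCADD (-2.66, SE 0.23, adjusted p = 0.000148). Qprt, which carries the tryptophan pathway into NAD, had 134, 148 and 158 CPM in WT and 103, 84.1 and 94.1 CPM in SCADD (-0.64, SE 0.14, adjusted p = 0.0207). The serine racemase Srr rose from 54.4, 59.3 and 56.2 CPM in WT to 80.7, 102 and 81.2 CPM in SCADD (0.64, SE 0.14, adjusted p = 0.0199). The remaining called ones, outside the rule for naming and chosen after their values were seen, were Aspg (-0.59, adjusted p = 0.0427) and Qdpr (0.52, adjusted p = 0.0441). Grhpr, which disposes of glyoxylate, had 0.16 (SE 0.16, adjusted p = 0.610) and was also named after its values were seen. Without WT replicate 2 or 3 Qprt and Srr were no longer called (adjusted p 0.0785 to 0.0956), nor was Srr without WT replicate 1 (0.0767) or SCADD replicate 1 (0.053).

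Among 14 tested amino acid transporters 2 rose and 1 fell (4.22% and 2.80% of all tested genes). Slc6a9, the glycine transporter GlyT1, had 3.33, 2.67 and 3.15 CPM in WT and 16.4, 17.6 and 12.2 CPM in SCADD, the smallest adjusted p of any gene in the lists described here (2.33, SE 0.19, adjusted p = 7.39e-05), and it passed under all 17 alternatives. The glutamate transporter Slc1a2 rose (0.83, SE 0.16, adjusted p = 0.0111) and the neutral amino acid transporter Slc43a1 fell (-1.20, SE 0.28, adjusted p = 0.0268). The call of Slc1a2 was lost without WT replicate 3 (0.0586), and that of Slc43a1 without WT replicate 3 (0.102) or SCADD replicate 1 (0.102).

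Of 23 regulators known to act on such genes, 1 fell and 1 rose, where 7.02% of all tested genes were called in either direction. Ppargc1a, a coactivator induced in fasting, had 11.4, 24.7 and 15.3 CPM in WT and 4.65, 6.18 and 3.60 CPM in SCADD (-1.82, SE 0.30, adjusted p = 0.00744). Its call was lost without SCADD replicate 3 (adjusted p = 0.0516). Hlf, a transcription factor with daily rhythm, had 14.7, 16.6 and 21.4 CPM in WT and 26.5, 36.1 and 27.1 CPM in SCADD (0.77, SE 0.18, adjusted p = 0.0269), and lost its call without WT replicate 1 or 2 or SCADD replicate 2 (0.0576 to 0.124). Hnf4a (0.44, adjusted p = 0.147), the glucocorticoid receptor gene Nr3c1 (0.25, adjusted p = 0.289) and Klf15 (-0.22, adjusted p = 0.630), chosen after their values were seen, did not pass. None of 9 genes that respond to glucocorticoids or glucagon passed the edgeR test, and 2 reached an unadjusted p under 0.05, or 22.2%, close to the 22.7% of all tested genes. The smallest p was that of Sik1 (1.03, SE 0.30, adjusted p = 0.0708), which DESeq2 called (adjusted p = 0.0177). DESeq2 called 1 of the 9 higher and 1 lower, and limma-voom 0.

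Because several members are expressed mainly around the portal vein, zonation genes that are not members are given beside them. Of 12 periportal genes 3 fell and 0 rose, with a median of -0.49, where 2.80% of all tested genes fell and 4.22% rose. Their TPM summed to 4925 to 5247 in WT and 2856 to 4533 in SCADD. The urea cycle was represented by Asl (-1.08, SE 0.14, adjusted p = 0.00149) and by Cps1, whose call was lost without WT replicate 2 at 0.0504 (-0.97, SE 0.17, adjusted p = 0.00728). The third was the cadherin Cdh1 (-2.22, SE 0.32, adjusted p = 0.00283). Of 10 tested pericentral genes 2 rose and 1 fell, with a median of 0.27, and the sums of all 11 were 2588 to 3047 TPM in WT and 2197 to 4380.1 TPM in SCADD. These were Slc1a2, Cyp1a2 (0.94, SE 0.22, adjusted p = 0.0297) and, lower, Lgr5 (-1.06, SE 0.25, adjusted p = 0.0319). The call of Cyp1a2 was lost on leaving out SCADD replicate 3 or any WT animal (0.0528 to 0.138), and for Lgr5 the same held for each of the 6 libraries apart from SCADD replicate 3 (0.058 to 0.103). The part of zonation in the members' values was not tested.

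Within the SCADD group the animals differed in how far the members stood from WT. The median log2 difference of the 46 members from the WT mean, on the scale log2(CPM + 0.5), was -0.38, -0.26 and -0.56 in SCADD replicates 1, 2 and 3, while over all tested genes it was -0.01, 0.00 and 0.01. SCADD replicate 3 held the lowest value of all 6 libraries for 23 of the 46 members, and WT replicate 2 or 3 the highest for 30. In SCADD replicate 1, 30 members lay below the lowest WT library and 7 above the highest, in replicate 2, 26 and 9, and in replicate 3, 33 and 8. Neither these counts nor those of the lowest and highest library were taken over all tested genes, so they describe the members only. The median coefficient of variation of the members was 10.98% in WT and 19.4% in SCADD, and it was larger in SCADD for 33 of them. That median was not computed over all tested genes. Over tested genes with at least 20 counts, libraries also differed more within SCADD than within WT. The chi-square per degree of freedom was 62.9 to 136 between SCADD libraries and 37.5 to 43.3 between WT libraries. SCADD replicate 3 also had the largest unmapped share, 36.6%, and the largest share of major urinary protein TPM, 14.8%. Without it 9 members fell and 2 rose, 7 of these 11 being among the 10 called with all libraries. The falls were 19.6% of the members, against 4.93% of all genes tested in that setting, where 909 genes rose.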

How the data were processed

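RNA from 3 WT and 3 SCADD livers, each labelled as a separate mouse, was compared. Per the submitters' processing notes reads were handled with STAR 2.7.6a and RSEM 1.3.3 on GRCm38; the annotation release is not given in the sources used here. The deposited STAR tables hold whole read counts per gene in 3 strand settings, and the reverse-stranded counts, with 96.8% to 97.3% of stranded reads, were used as deposited. The deposited RSEM tables hold expected counts, TPM and mean transcript length per gene; TPM served for levels between genes, and expected counts, rounded, for an alternative. STAR's rows of unassigned reads stayed out of library sizes. Symbols and coordinates came from GENCODE M21 for 55141 of 55487 identifiers.

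Genes passing edgeR's filterByExpr (minimum count 10), 13498 in all, were fitted with edgeR 4.0.16 in R 4.3.3 by the quasi-likelihood test with TMM scaling, robust fitting and group as the only term, and p-values were adjusted by Benjamini and Hochberg over all of them with a threshold of 0.05. The biological coefficient of variation was 17.6%. The SE of a fold change was derived from it and the F statistic. P-values measure only the spread between these animals. The same code was tested on simulated counts. Replicates of a group differed beyond counting noise (chi-square per degree of freedom 37.5 to 43.3 in WT and 62.9 to 136 in SCADD), so no library was counted as a repeat of another.

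Alternatives were RLE, upper-quartile and Mup-free TMM scaling, no filter, a filter of 1 CPM in 3 libraries, DESeq2 1.42.0, limma-voom (limma 3.58.1), unstranded counts, RSEM expected counts, a test against 1.5-fold, the replicate number as a block and each library left out. Values in every library are given for called members, for the member with the largest absolute log2 fold change per amino acid and for the 3 highest by TPM; of other lists up to 3 called genes with the smallest p are named. The members and lists were chosen with earlier results of these data known. Gcat, which matched 2 identifiers, was left out of the other pathway genes, and proteins were not compared here.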

Additional observations from a re-analysis of the deposited data

How the results depend on the processing

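With 3 animals a group and a biological coefficient of variation of 17.6%, the counts of calls moved with single animals while directions moved little. The log2 fold change kept its sign in all 17 alternatives for 42 of 46 members, and 0 of the called values reversed. For the called members, whose groups did not overlap, these settings could hardly have reversed the sign. The median over the members ran from -0.48 (without SCADD replicate 2) to -0.28 (without SCADD replicate 3). Of the 36 members not called, 13 were called under at least 1 alternative and 23 under none. The same count was not taken over all genes not called, so it describes the members only. Members called lower, 9 with all libraries, came to 17 without a filter and 17 with DESeq2, and to 0 against a 1.5-fold change; with 1 library left out they ranged from 0 to 14. Members called higher, 1 with all libraries, came to 0 with upper-quartile scaling, RSEM expected counts or the 1.5-fold test, to 2 without a filter, with DESeq2 or with limma-voom, and to 0 to 2 with 1 library left out. Over all tested genes, 378 lower and 569 higher became 752 and 950 without a filter, 545 and 745 with DESeq2, and 81 and 143 against 1.5-fold. With 1 library left out, 155 to 681 were lower and 240 to 909 higher. Upper-quartile scaling moved the median of all genes to -0.05 and gave 482 lower and 470 higher. Of the other pathway, transporter, regulator and zonation genes, 9 were lower and 6 higher; without a filter 12 were higher, against 1.5-fold 4 were lower and 1 higher, and with 1 library left out 5 to 15 were lower and 2 to 9 higher. The cause of these moves was not tested, beyond the fewer libraries or the stricter test in the settings concerned.

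The same replicate number in both groups was not taken as a pairing, and whether the numbers mark one was not tested. Deviations of same-numbered libraries from their group means correlated at 0.0709, 0.0245 and 0.117, all positive. Between differently numbered libraries the values ran from -0.157 to 0.0803 and were mostly negative, the highest being WT replicate 2 with SCADD replicate 1. Deviations from a group mean cancel out within each gene. The values of same-numbered and differently numbered libraries are therefore not independent, and their contrast is no evidence of a pairing. With the replicate number as a block, 12 members were lower and 1 higher, 9 of these 13 being among the 10 called without it, and over all genes 480 were lower and 668 higher. Ido2 was not called there (adjusted p = 0.0541), and Cth, Gls2, Hal and Gpt2 were.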
